A study of Rattus norvegicus with 17 samples.

Results

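The neurofilament genes Nefl (ENSRNOG00000013658), Nefm (ENSRNOG00000013916) and Nefh (ENSRNOG00000008716) were followed through the spinal cords of 17 rats. They are 3 of the 32494 genes in the count table, chosen by identifier. Neurofilaments are the intermediate filaments of neurons. The light subunit NF-L, the product of Nefl, forms the core of the filament together with the medium and heavy subunits NF-M and NF-H, whose long and heavily phosphorylated tails project outward as side arms. The filaments fill large myelinated axons and set their caliber, whereas the transcripts are made mainly in the cell bodies, motor neurons being a rich source in the cord. NF-L released from damaged axons is used as a marker of axonal injury in blood and cerebrospinal fluid. In the RefSeq gene table Nefl and Nefm are neighbors with no protein-coding gene between them, and Nefh lies on another chromosome. No coordinates are given, because the build of that table differs from the one used for the counts.

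Group A held 4 rats with neither SCI nor stimulation, group B held 3 with SCI alone, and group C held 3 with SCI that were stimulated. The 2 rats of group D had SCI, stimulation and pimozide, and the 5 of group E were stimulated without SCI. According to the methods of the paper, the animals were female Sprague-Dawley rats aged 10 to 12 weeks. All of them carried an electrode in the nucleus raphe magnus (NRM), a brainstem source of serotonin, and underwent either a contusion of the thoracic cord or a sham operation. Stimulation was given for 2 h, 3 days after surgery, and pimozide, which blocks dopamine and serotonin receptors, was injected at 1 mg/kg 1 h before it. For group E the treatment label says unstimulated, whereas the series design and the paper describe the group as stimulated, and the letter in the title was followed here. One library was made from the cervical, thoracic and lumbar blocks of each rat, 3 in all, so that a level averages over the lesion and over cord above and below it, and fewer neurons cannot be told apart from less RNA per neuron.

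The rats had 9852873 to 14137717 counts on genes, of which each neurofilament gene took 6580 to 54835, so that counting error was only 0.427% to 1.23% of a level. Rats 76 (group D) and 89 (group C) stood apart from the rest, with a median correlation to the other rats of 0.940 each against 0.963 to 0.984 in the other 15. Of the marker lists for other cell types only that of red cells could be matched to identifiers. Its 5 genes summed to 149 to 773 CPM in group A, 209 to 297 in group B, 426 to 1224 in group C, 182 to 256 in group D and 185 to 449 in group E. In group C against group E, 4 of these 5 were higher at an FDR under 0.05, as were 17.4% of all genes, among them Alas2, the first enzyme of heme synthesis in red cells, at a log2 difference of 1.54 (adjusted p = 0.016) and Slc4a1, the anion exchanger of their membrane, at 2.27 (adjusted p = 0.0048). In the other contrasts 0 of 5 passed in the quasi-likelihood fit and with DESeq2. Without passing in that fit, all 5 were at log2 differences of 1.49 to 3.18 in C against B (unadjusted p 0.0018 to 0.0099), -2.19 to -0.99 in B against A, -2.08 to -1.66 in D against C and -1.86 to -0.65 in E against A. The difference between the effects of stimulation in injured and in intact rats was 2.14 to 5.04 (unadjusted p 0.00053 to 0.0045). The exact test on each pair of groups alone, without a limit on the fold, called 4, 2, 2 and 0 of the 5 in the first 4 of these contrasts. Over all genes it tested there, it called 0.151%, 14.3%, 0.365% and 0.223%. These 5 had names only because the study flagged them on these rats in C against B or D against C. Their differences in those contrasts are therefore no independent evidence, nor fully so in other contrasts with these groups. In the average of the injury contrasts Alas2 was at 0.27 and Slc4a1 at 0.53 (adjusted p = 0.54 and 0.32). The part of blood in the results below was not tested.

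Nefl had a lower mean level in each of the injured groups than in either intact group. Levels are given as CPM, that is, relative to the total count of the library after TMM scaling. The gene lengths needed to compare genes with each other were not used here, and each gene is therefore compared between rats only. In group A, Nefl was at 2923, 3948, 4442 and 3495 CPM in rats 70, 82, 83 and 84, and in group E at 3167, 3733, 3837, 3833 and 3541 CPM in rats 69, 85, 86, 87 and 88. Group B had 2533, 2754 and 2731 CPM in rats 91, 94 and 95. Group C had 2170, 2532 and 3368 CPM in rats 89, 90 and 93. Each rat of group B was below each rat of groups A and E, as was the case for 8.56% of all genes, whereas rat 93 of group C lay within the range of the intact rats. The 2 rats of group D differed from each other more than any other pair in one group, with 3081 CPM in rat 75 and 1427 CPM in rat 76. Ordered by mean level, the groups ran A, E, C, B and D, at 3702 ± 648 (SD, n = 4), 3622 ± 281 (SD, n = 5), 2690 ± 614 (SD, n = 3), 2673 ± 122 (SD, n = 3) and 2254 ± 1170 (SD, n = 2). The ranges of C and E overlapped only through rat 93 of group C (3368 CPM) and rat 69 of group E (3167 CPM). Those of every other pair of neighbors in this order overlapped as well.

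Nefh followed nearly the same order as Nefl. Its level was 2235, 2916, 3212 and 2674 CPM in rats 70, 82, 83 and 84 of group A and 2370, 2341, 2679, 2468 and 2558 CPM in rats 69, 85, 86, 87 and 88 of group E. In the injured, unstimulated rats 91, 94 and 95 it was 1792, 2039 and 2161 CPM, again below every intact rat (8.56% of all genes). Rats 89, 90 and 93 of group C had 1622, 2027 and 2484 CPM, and rats 75 and 76 of group D had 2472 and 1164 CPM. The group means were 2759 ± 413 (SD, n = 4) in A, 2483 ± 139 (SD, n = 5) in E, 2044 ± 431 (SD, n = 3) in C, 1998 ± 188 (SD, n = 3) in B and 1818 ± 925 (SD, n = 2) in D, and each group overlapped with the next.

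Nefm was ordered differently. Group A spread widely, with 1422, 1550, 2656 and 2107 CPM in rats 70, 82, 83 and 84. Group E was low and tight, at 1287, 1160, 1362, 1335 and 1484 CPM in rats 69, 85, 86, 87 and 88. The injured rats of groups B (1415, 1650 and 1655 CPM in rats 91, 94 and 95) and C (1352, 1570 and 1850 CPM in rats 89, 90 and 93) lay within or above the range of group E and below rats 83 and 84 of group A. Rats 75 and 76 of group D had 1347 and 598 CPM. By mean level the groups ran A (1934 ± 566, SD, n = 4), C (1590 ± 250, SD, n = 3), B (1574 ± 137, SD, n = 3), E (1326 ± 118, SD, n = 5) and D (973 ± 530, SD, n = 2), with overlap between each group and the next. For Nefm the intact rats of group E thus stood below the injured rats of B and C in the mean, where for the other subunits they stood above them.

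**Figure D1:**
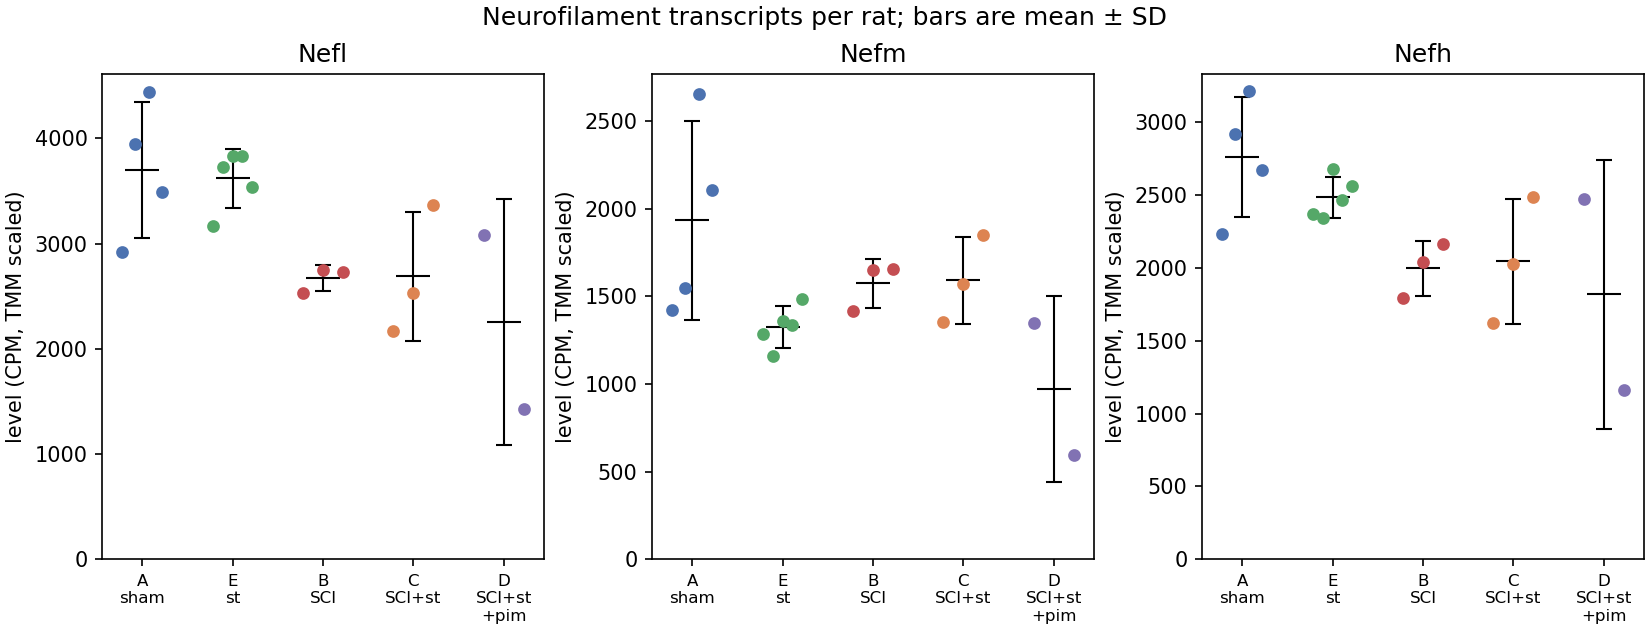
Level of Nefl, Nefm and Nefh in each of the 17 rats (points, CPM after TMM scaling, vertical axis from 0), by group on the horizontal axis, with the mean and SD as a bar. For Nefl and Nefh the 3 rats of group B lie below all rats of groups A and E, and for Nefm group E (1160 to 1484 CPM) lies low while group A spans 1422 to 2656 CPM.

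The question whether injury changed these transcripts was addressed by 3 contrasts of injured with intact rats, fitted jointly over the 17 rats with the quasi-likelihood test of edgeR and adjusted with the method of Benjamini and Hochberg over 15460 genes. The contrasts share groups A and C and are not independent of each other. In ±SCI(0), B against A, Nefl was at a log2(FC) of -0.47 (SE 0.20), a difference of -27.8% in level, with an unadjusted p of 0.034 and an adjusted p of 0.14. Nefh was at -0.47 (SE 0.20, adjusted p = 0.13) and Nefm at -0.30 (SE 0.23, adjusted p = 0.41), which was -0.10 without rat 83 of group A. Hence 0 of the 3 genes were called by edgeR's quasi-likelihood test at an FDR under 0.05, where 2.72% of all genes were called lower, and 2 of the 3 had an unadjusted p under 0.05, as had 4377 of the 15460 genes. The same 2 genes, Nefl and Nefh, did not overlap between groups A and B, as was the case, in the lower direction, for 15.1% of all genes. DESeq2 called 0 of the 3 as well, against 14.9% of all genes, whereas edgeR's exact test run on groups A and B alone, the test named in the published methods, called both Nefl (adjusted p = 0.011) and Nefh (adjusted p = 0.0075), along with 14.3% of the 22143 genes it tested. At a log2(FC) of -0.41 each, neither met the limit of 1 on its absolute value that the study required in addition. The exact tests on 1 pair of groups were scaled by total counts, without a filter on low counts. With TMM scaling, the filter and all rats, the exact test called neither Nefl nor Nefh (adjusted p = 0.12 and 0.1). It called 14.1% of all genes. The quasi-likelihood fit of groups A and B alone called Nefl and Nefh, with adjusted p of 0.018 and 0.016. So did the fit without rats 76 and 89, with 0.016 and 0.0084. The share of all genes called in these fits is not reported here, so the calls cannot be set against it.

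In ±SCI(st), C against E, the subunits pointed in different directions. Nefl was at -0.43 (SE 0.20, adjusted p = 0.11) and Nefh at -0.28 (SE 0.19, adjusted p = 0.27), but Nefm was at 0.26 (SE 0.22, adjusted p = 0.38). The 95% interval of Nefm ran from -0.19 to 0.72. None of the 3 was called by edgeR's quasi-likelihood test or by DESeq2, and 1 of 3 had an unadjusted p under 0.05 in each. DESeq2 called 30.5% of all genes. By the quasi-likelihood test 11.3% of all genes were called lower and 17.4% higher, and 6339 of the 15460 had an unadjusted p under 0.05. An exact test of C and E alone, and the quasi-likelihood fit of these groups alone, called Nefl (adjusted p = 0.023 and 0.048 with edgeR), and the former called 3496 of 22759 genes in all. For the latter that number is not reported here. Without rat 93 Nefm was at 0.15. The value of Nefl depended on rats of group C: without rat 93 it was -0.62 with an adjusted p of 0.032, and without rat 89 it was -0.30, which also took Nefh to -0.14. In ±st/SCI(0), C against A, the values were -0.46 (SE 0.20, adjusted p = 0.11) for Nefl, -0.43 (SE 0.20, adjusted p = 0.12) for Nefh and -0.28 (SE 0.23, adjusted p = 0.39) for Nefm. Here 0 of 3 were called by the quasi-likelihood test and by DESeq2, 2 of 3 had an unadjusted p under 0.05 in each. DESeq2 called 24.5% of all genes. An exact test of C and A alone also called 0 of 3 (smallest adjusted p = 0.13), against 11.6% of the 22264 genes it tested. By the quasi-likelihood test 7.08% were called lower, and 5742 of the 15460 had an unadjusted p under 0.05. Without rat 93, Nefl (-0.64, adjusted p = 0.033) and Nefh (-0.59, adjusted p = 0.044) were called, and without rat 89 the values were -0.33 and -0.29. The share of all genes called without rat 93 is not reported here. Nefm was at -0.083 without rat 83.

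Averaging ±SCI(0) and ±SCI(st), which compares the 6 rats of B and C with the 9 of A and E at equal weight for unstimulated and stimulated rats, narrowed the error. Nefl fell by 0.45 on the log2 scale (edgeR quasi-likelihood test, SE 0.14, adjusted p = 0.019), to 0.732 of its intact level. Nefh fell by 0.37 (same test, SE 0.14, adjusted p = 0.037), to 0.772 of its intact level. Nefm was at -0.017 (SE 0.16, adjusted p = 0.94), with a 95% interval from -0.35 to 0.31. Thus 2 of 3 genes were called lower, against 17.9% of all genes, and DESeq2 also called 2 of 3, with 39.5% of all genes called in either direction. With the limit of 1 on the absolute log2(FC) that the study also set, 0 of 3 were called, against 0.621% of all genes in the lower direction. Injured and intact rats overlapped for each of the 3, where 3.57% of all genes were lower without overlap. Rat numbers run from 69 to 76 and from 82 to 95, and groups B and C have numbers of the second series only. With a term for the series the values were -0.52 for Nefl and -0.42 for Nefh, with adjusted p of 0.011 and 0.029. With 1 of the 15 rats left out in turn Nefl stayed called except without rat 89 of group C (-0.38, adjusted p = 0.056), and Nefh stayed called in 6 of the 15 fits. The call of Nefh was lost without rat 82 or 83 of group A, 91 or 94 of group B, 89 or 90 of group C, or 86, 87 or 88 of group E, with an adjusted p of at most 0.10 in these fits. Rat 76 of group D enters the contrast only through the shared spread, and without it the adjusted p was 0.0021 for Nefl and 0.0046 for Nefh. Without both rat 76 and rat 89 the values were -0.36 (adjusted p = 0.0063) and -0.28 (adjusted p = 0.014).

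**Figure D2:**
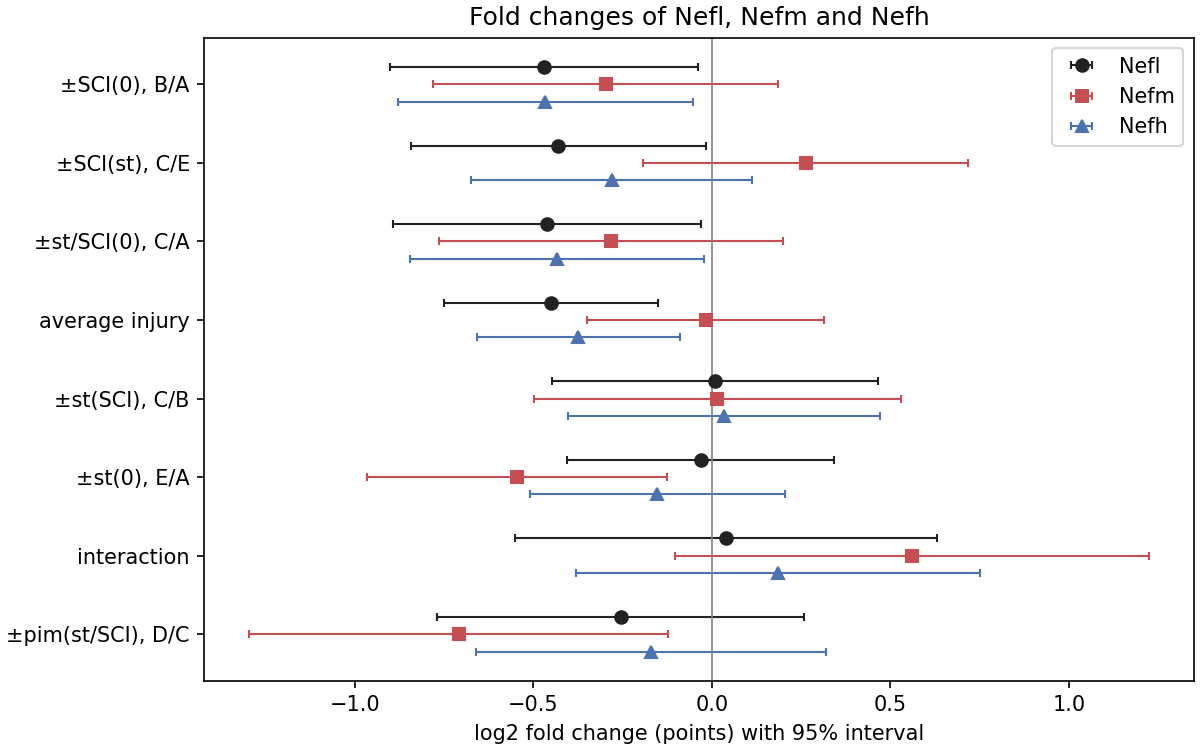
log2 fold change (horizontal axis) of Nefl, Nefm and Nefh in each contrast (vertical axis), from the quasi-likelihood fit, with unadjusted 95% intervals as bars and a grey line at no difference. Nefl and Nefh lie left of 0 in the contrasts of injured with intact rats, at -0.45 and -0.37 on average, while Nefm moves from -0.30 in ±SCI(0) to 0.26 in ±SCI(st) and lies lowest in ±st(0) and ±pim(st/SCI).

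Stimulation in injured rats left the means of the 3 genes close together. In ±st(SCI), C against B, the log2(FC) was 0.0094 (SE 0.22) for Nefl, 0.015 (SE 0.24) for Nefm and 0.033 (SE 0.21) for Nefh, each with an adjusted p of 1 (edgeR, quasi-likelihood). The 95% intervals ran from -0.45 to 0.47, from -0.50 to 0.53 and from -0.40 to 0.47, so that changes of up to about these sizes remain possible. The call count was 0 of 3 by the quasi-likelihood test, where 0% of all genes were called, and 0 of 3 had an unadjusted p under 0.05, as had 476 of the 15460 genes. DESeq2 and an exact test of C and B alone also called 0 of 3, and over all genes they called 0 of 15460 and 33 of 21860. The spread within group C was wide, and rats 89 and 93 were its lowest and highest for each of the 3 genes. Without rat 93 the log2(FC) was -0.17 for Nefl, -0.096 for Nefm and -0.12 for Nefh. Without rat 89 it was 0.14, 0.12 and 0.18.

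In intact rats, ±st(0), E against A, Nefm was the member farthest from 0. It was at -0.54 (SE 0.20), a difference of -31.4% in level, with an unadjusted p of 0.014 and an adjusted p of 0.48 in the quasi-likelihood fit of edgeR, and 2.17% of the tested genes had a lower log2(FC). Nefl was at -0.031 (SE 0.18, 95% interval -0.41 to 0.34, adjusted p = 0.98) and Nefh at -0.15 (SE 0.17, 95% interval -0.51 to 0.21, adjusted p = 0.85). Of the 3 genes 0 were called by the quasi-likelihood test, as were 0% of all genes, and 1 of 3 had an unadjusted p under 0.05, as had 1297 of the 15460. DESeq2 called 38 genes and an exact test of A and E alone 51, with 0 of the 3 members among them in either. The levels of Nefm overlapped between the groups, since rats 70 and 82 of group A (1422 and 1550 CPM) were close to group E. Without rat 83 of group A, the highest, the log2(FC) was -0.35, and without rat 70, the lowest, it was -0.67. The difference between the effects of stimulation in injured and in intact rats was 0.56 (SE 0.31, adjusted p = 1) for Nefm, 0.041 (SE 0.28, adjusted p = 1) for Nefl and 0.19 (SE 0.27, adjusted p = 1) for Nefh, and 0 of 3 members were called by edgeR's quasi-likelihood test or DESeq2, which each called 0% of all genes. None of the 3 had an unadjusted p under 0.05 in either, as 635 of the 15460 genes had in the former. With a rat left out in turn the difference ran from 0.37 (without rat 83) to 0.68 (without rat 70) for Nefm, from -0.15 (without rat 93) to 0.17 (without rat 89) for Nefl and from 0.029 (without rat 93) to 0.33 (without rat 89) for Nefh. In ±st(0) itself Nefh ran from -0.24 (without rat 70) to -0.067 (without rat 83).

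The rats given pimozide before stimulation addressed whether the drug altered these levels. In ±pim(st/SCI), D against C, Nefm was at -0.71 (SE 0.28, unadjusted p = 0.021, adjusted p = 0.44 with edgeR), Nefl at -0.25 (SE 0.24, adjusted p = 0.82) and Nefh at -0.17 (SE 0.23, adjusted p = 0.89). The quasi-likelihood test called 0 of the 3 genes, against 0.0323% of all genes, 1 of 3 had an unadjusted p under 0.05, as had 1370 of the 15460 genes, and DESeq2 and the exact test of D and C alone called 0 of 3, with 75 of 15460 and 80 of 21926 genes called in all. Both rats of group D lay below the 3 rats of group C in Nefm, by a narrow margin for rat 75 (1347 against 1352 CPM in rat 89), as 9.23% of all genes did. The values hung on single rats. Without rat 75 they were -1.41, -0.92 and -0.81 for Nefm, Nefl and Nefh, and without rat 76 they were -0.24, 0.20 and 0.27. With a term for the number series they were -0.42, 0.079 and 0.059, and without both rats 76 and 89 they were -0.33, 0.077 and 0.15. Such a fit assumes that the lone rat varies like those of the other groups.

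The ratio of 2 subunits within a library does not depend on scaling. Here it is a ratio of counts, which reflects the lengths of the transcripts as well as their number, so its size is no stoichiometry of the filament and only its differences between rats are described. Counting error gave each ratio a 95% interval (exact, Clopper-Pearson) of ±1.31% to ±2.98% of its value. The ratio Nefh/Nefl varied little. It was 0.765, 0.739, 0.723 and 0.765 in rats 70, 82, 83 and 84 of group A, 0.707, 0.741 and 0.791 in rats 91, 94 and 95 of group B, and 0.747, 0.801 and 0.737 in rats 89, 90 and 93 of group C. Rats 75 and 76 of group D had 0.802 and 0.815, although their levels of both genes differed more than 2-fold. Group E reached lower, with 0.748, 0.627, 0.698, 0.644 and 0.722 in rats 69, 85, 86, 87 and 88.

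Nefm/Nefl, by contrast, fell into separate ranges. In group B it was 0.559, 0.599 and 0.606 in rats 91, 94 and 95, and in group C 0.623, 0.620 and 0.549 in rats 89, 90 and 93. In group E it was 0.407, 0.311, 0.355, 0.348 and 0.419 in rats 69, 85, 86, 87 and 88, below every rat of B and C. Group A was divided, with 0.598 and 0.603 in rats 83 and 84 at the level of the injured rats, 0.487 in rat 70 and 0.393 in rat 82, the last within the range of group E. Rats 75 and 76 of group D, injured and stimulated like group C, had 0.437 and 0.419, above or at the upper edge of the range of E and below that of C. Nefh/Nefm showed the mirror image, at 1.20 to 1.34 in groups B and C, 1.72 to 2.02 in group E, 1.83 and 1.95 in group D, and 1.57, 1.88, 1.21 and 1.27 in rats 70, 82, 83 and 84 of group A.

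**Figure D3:**
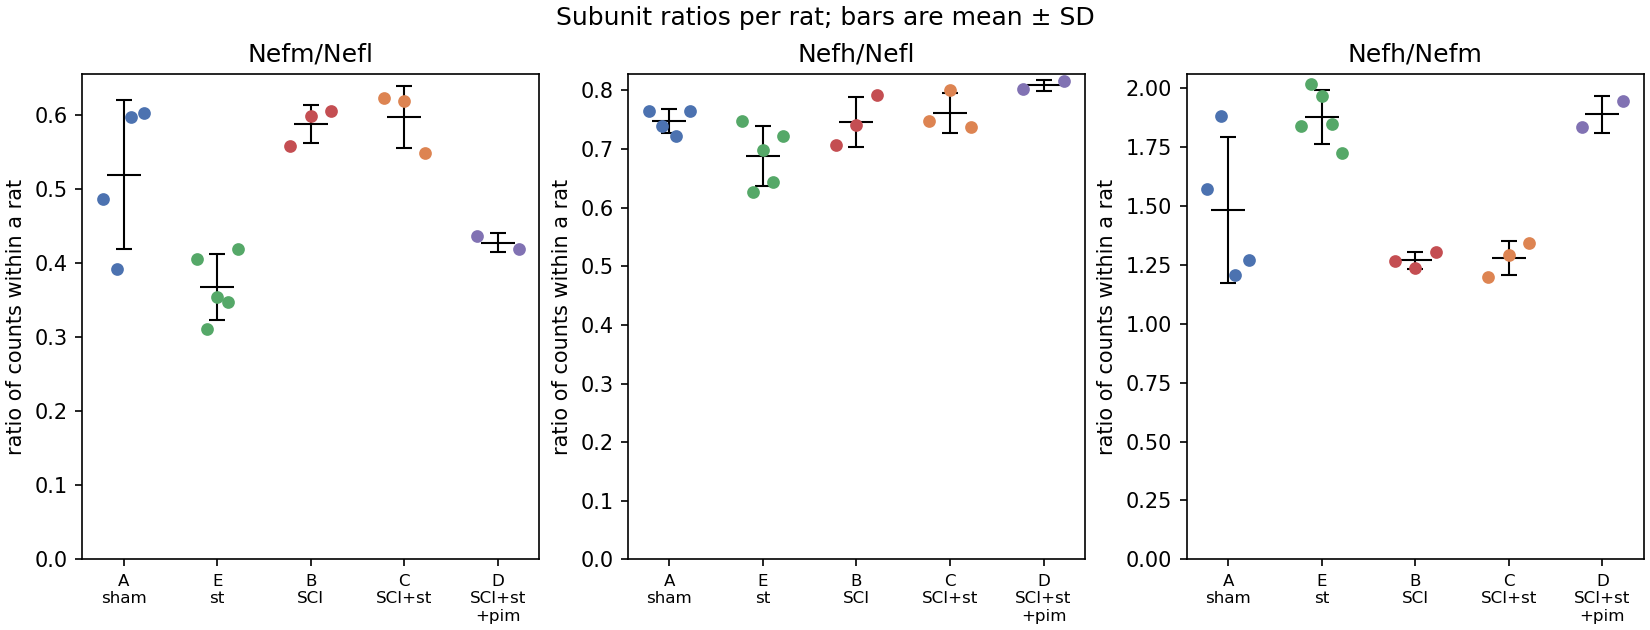
Ratio of counts of 2 subunits within each of the 17 rats (points, vertical axis from 0), by group on the horizontal axis, with the mean and SD as a bar. Nefh/Nefl stays between 0.627 and 0.815 in all rats, whereas Nefm/Nefl is 0.549 to 0.623 in groups B and C, 0.311 to 0.419 in group E, and spans 0.393 to 0.603 in group A.

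Differences in mean log2 ratio were examined with 2-sided exact permutation tests, 21 in all for 3 ratios and 7 contrasts. In ±SCI(st), Nefm/Nefl was 1.63-fold higher in group C than in group E (difference 0.71 on the log2 scale, exact permutation p = 0.036, the smallest value that 3 rats against 5 allow) and Nefh/Nefm was at 0.680 of its level in E (exact permutation p = 0.036), without overlap of the rats in either. In ±st(0), Nefm/Nefl in group E was at 0.714 of its level in group A (difference -0.49, p = 0.048 by the exact permutation test), and with a rat left out p was under 0.05 in 1 of 9 tests, that without rat 82. For the average of the injury contrasts, with labels permuted within unstimulated and within stimulated rats, Nefm/Nefl was higher by 0.45 (p = 0.0061) and Nefh/Nefm lower, at -0.38 (p = 0.0082), in the injured rats, both by the exact permutation test. With each rat left out these differences stayed between 0.39 and 0.49 and between -0.42 and -0.32. Within rats 82 to 95 Nefm/Nefl was higher by 0.46 (exact permutation p = 0.017). None of the 21 passed an FDR of 0.05. The adjusted p was 0.086 for these last values and 0.19 for the former, and 5 of the 21 had an unadjusted p under 0.05. In ±SCI(0), Nefm/Nefl differed by 0.20 (exact permutation p = 0.34) and in ±st(SCI) by 0.021 (exact permutation p = 0.60). Nefm/Nefl in group D was at 0.718 of its level in group C, without overlap, and 2 rats against 3 cannot give a p below 0.20. Nefh/Nefl and Nefh/Nefm did not overlap between these groups either. Nefh/Nefl did not reach 0.05 in any contrast of all rats, with unadjusted exact permutation p from 0.063 to 1. With a rat left out it did so in 1 of 15 tests of the average (exact permutation p = 0.04, without rat 91). In ±st(0) it did so in 1 of 9 (exact permutation p = 0.029, without rat 69). Nefh/Nefm in ±st(0) also did so in 1 of 9 (exact permutation p = 0.036, without rat 82).

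Small RNAs moved with the ratio of Nefm to Nefl. The supplement of the paper names 33 small nucleolar, small nuclear and miscellaneous RNAs by identifier. They were picked by the study on these rats, nearly all for a difference between groups D and C, so that difference is no independent evidence. Their summed level was 388 to 626 CPM in group B, 437 to 570 CPM in group C, 2427 and 3099 CPM in group D and 1957 to 4923 CPM in group E. In group A it was 544, 475 and 480 CPM in rats 70, 83 and 84, but 3061 CPM in rat 82, the rat of that group with the lowest Nefm/Nefl. The 9 rats with a summed level under 1000 CPM had an Nefm/Nefl of 0.487 to 0.623, and the other 8 had 0.311 to 0.437, whereas for Nefh/Nefl the ranges of 0.707 to 0.801 and 0.627 to 0.815 overlapped. Groups D and E hold no rat with a low level of these small RNAs and groups B and C none with a high level, so that in ±SCI(st) and ±pim(st/SCI) the level of small RNAs and the group cannot be told apart. The average of the injury contrasts contains ±SCI(st), so its values for Nefl (-0.45), Nefh (-0.37) and Nefm (-0.017) and its Nefm/Nefl difference of 0.45 cannot be fully told apart from the level of small RNAs either. For ±st(0) no comparison within one level of small RNAs could be made with more than 1 rat of group A.

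**Figure D4:**
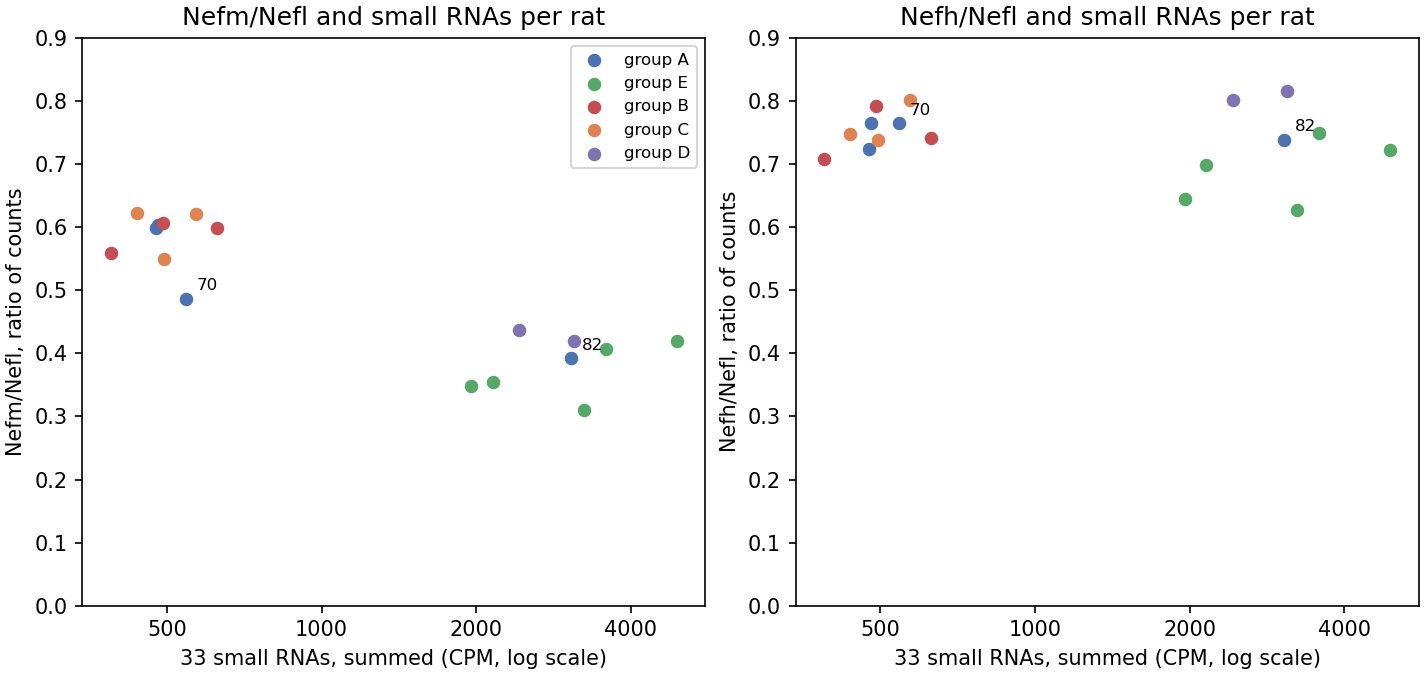
Ratio of counts Nefm/Nefl (left) and Nefh/Nefl (right) on the vertical axis, from 0, against the summed level of 33 small RNAs (CPM, log scale) in each of the 17 rats, colored by group, with rats 70 and 82 of group A labeled. Rats with under 1000 CPM have Nefm/Nefl from 0.487 to 0.623 and the others from 0.311 to 0.437, while Nefh/Nefl overlaps between them.

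The contrasts were also fitted among the 9 rats with under 1000 CPM of small RNAs, 3 each of groups A, B and C, a set chosen after the data were seen. No member was called in it. In ±SCI(0), Nefl was at -0.43, Nefm at -0.39 and Nefh at -0.44, with adjusted p of 0.17, 0.26 and 0.15 in edgeR's fit, and in ±st/SCI(0) they were at -0.42, -0.37 and -0.40, with adjusted p of 0.13, 0.22 and 0.13. Nefm/Nefl then differed by only 0.070 in ±SCI(0) and by 0.091 in ±st/SCI(0), with exact permutation p of 0.60 and 0.50, where 3 rats against 3 cannot go below 0.10. Hence the log2(FC) of Nefl and Nefh was close to that in all rats, and the difference of Nefm from the other subunits was smaller without rat 82.

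Covariation of the subunits from rat to rat differed between pairs, and it was firmest for Nefl and Nefh in the injured rats. So that a difference between injured and intact rats would not enter, correlations of log2 CPM were computed within the 9 intact and within the 8 injured rats, 6 in all, with exact permutation p. Nefl and Nefh correlated with r = 0.981 (p = 0.0004, adjusted p = 0.0024 by exact permutation and Benjamini-Hochberg adjustment) and rho = 0.952 (exact permutation p = 0.0011) in the injured rats, and with r = 0.821 (exact permutation p = 0.0052, adjusted p = 0.016) and rho = 0.800 (exact permutation p = 0.014) in the intact rats. Without the 2 rats farthest from the median, r was 0.949 in the injured rats (without 76 and 93) and 0.504 in the intact rats (without 70 and 83, exact permutation p = 0.23), so that Pearson's r in the intact rats no longer passed without those 2. Nefm and Nefl gave r = 0.909 (adjusted p = 0.038 by exact permutation) and rho = 0.595 (exact permutation p = 0.13) in the injured rats, but r = 0.203 without rats 76 and 93. In the intact rats they gave r = 0.458 (adjusted p = 0.21 by exact permutation) and rho = 0.333 (exact permutation p = 0.39). Without rats 70 and 83 that r was -0.082. Nefm and Nefh gave r = 0.862 (adjusted p = 0.038 by exact permutation) and rho = 0.643 (exact permutation p = 0.096) in injured rats and r = 0.780 (adjusted p = 0.038 by exact permutation) and rho = 0.717 (exact permutation p = 0.037) in intact rats. These fell to 0.221 and 0.593 without the 2 farthest rats. Centered on the group means, r in the injured rats was 0.981 for Nefm and Nefl and 0.987 for Nefl and Nefh. For Nefm and Nefh it was 0.988. In the intact rats the values were 0.591, 0.895 and 0.729 in the same order. Centering turns the 2 rats of group D into equal and opposite deviations. These rats lay far apart, with Nefl at 3081 CPM in rat 75 and 1427 CPM in rat 76. How far the centered r in the injured rats rests on this pair was not tested. All points share the scaling of their library.

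**Figure D5:**
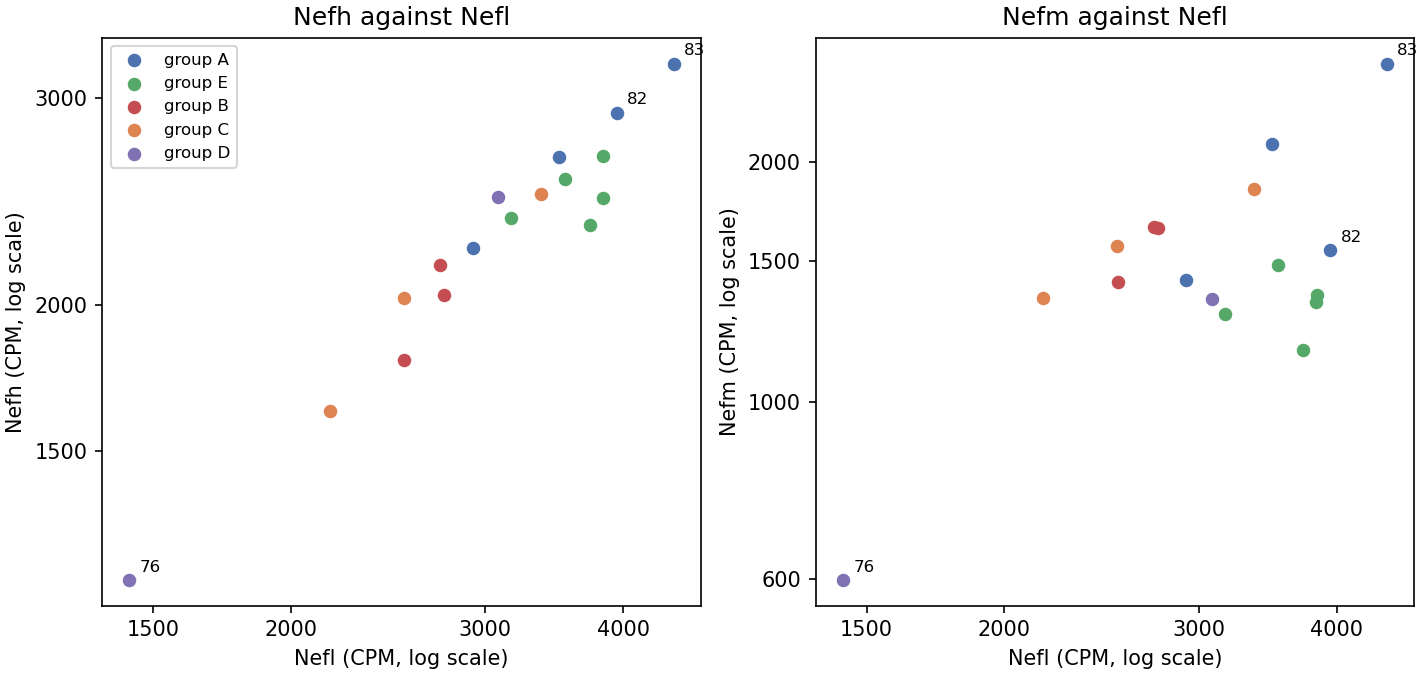
Level of Nefh (left) and Nefm (right) against that of Nefl in the same rat (CPM, log scales), colored by group, with rats 76, 82 and 83 labeled. Nefh follows Nefl closely in the injured rats (r = 0.981) and less closely in the intact rats (r = 0.821). The rats of group E and rat 82 lie lower in Nefm relative to Nefl (0.311 to 0.419) than rats 83 and 84 of group A and the rats of groups B and C (0.549 to 0.623).

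As a description over all 17 rats, Nefl was the gene most like Nefh among the 15459 others tested, with r = 0.969. In turn Nefh ranked second for Nefl after ENSRNOG00000008565 (r = 0.973), a gene whose name the tables used here do not pair with its identifier. Nefm stood farther off. Nefh ranked 151 and Nefl 387 in likeness to Nefm, with r = 0.746 and 0.677, and the first place was held by the likewise unnamed ENSRNOG00000023337 (r = 0.913). When each rat was centered on its group mean, Nefh ranked first for Nefl (r = 0.966) but Nefl ranked second for Nefh. For Nefm the ranks of Nefh and Nefl improved to 6 and 23 (r = 0.883 and 0.841). These centered ranks include the pair of rats of group D, and how far they rest on it was not tested. Only 98 tested genes had a name, and the supplement lists them because they differed in the study's own comparisons, red cell genes and small RNAs among them, so that the order of likeness follows in part from that list. The beta-globin gene Hbb-b1 came first for each member, with r = 0.447 for Nefl, 0.518 for Nefh and 0.723 for Nefm, at ranks 4519, 3763 and 217 among all genes.

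After it came Hbb (r = 0.433), Hba-a1 (r = 0.409) and Hba-a2 (r = 0.397), all globins, and Epx (r = 0.380), the eosinophil peroxidase, for Nefl. For Nefh the next were Hbb (r = 0.488), Hba-a1 (r = 0.462), Hba-a2 (r = 0.442) and LOC103694857 (r = 0.420). For Nefm they were Kel (r = 0.626), a blood group protein, Epb42 (r = 0.597), a protein of the red cell membrane, Hba-a2 (r = 0.585) and Hba-a1 (r = 0.575). These 98 of 15460 genes cover few of those that neurons express.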

How the data were processed

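RNA from the spinal cords of 17 rats was sequenced as single-end reads of 75 bp from ribosomal RNA-depleted libraries. According to the methods and the submitters' processing notes, the authors trimmed reads with Trim Galore 0.4.1, aligned them with STAR 2.5.0a and counted them per Ensembl gene. The deposited counts are whole numbers without normalization. The methods name Rnor_5.0 and the notes Rnor_6.0, and the strand column used is not stated. Multi-mapping reads are not counted by this function of STAR.

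Genes passing edgeR's filterByExpr (15460) were fitted with glmQLFit, TMM scaling and one coefficient per group, tested with glmQLFTest and adjusted by Benjamini-Hochberg; called means an FDR under 0.05. The study's own test was the exact test. edgeR 4.0.16, limma 3.58.1 and DESeq2 1.42.0 (R 4.3.3), scipy 1.17.1, numpy 2.4.6, pandas 2.3.3 and matplotlib 3.10.9 (Python 3.11.15) were used. On simulated data with 200 changed genes the test recovered 190 in ±SCI(0), with 11 false calls, and 181 in ±SCI(st), with 7. Recovery was lowest in ±pim(st/SCI), at 175 with 15 false calls. How well the test recovers differences as small as those of the 3 members was not tested. Likeness used log2(CPM + 0.5). The alternatives were DESeq2, exact tests, other scalings, filters and dispersions, fits of fewer groups, a term for the rat number series (69 to 76, 82 to 95) and each rat left out. Shares of all genes called are given for the main fit, DESeq2 and exact tests, not for fits of fewer groups or rats. Libraries of one group differed by 4.19 to 38.0 times counting noise (chi-square per degree of freedom), so none was a duplicate.

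The pairing of the 3 member identifiers with their symbols was given and was not checked against a table. The members, lists and tests were chosen with earlier results of these data known. Named are the members, the 5 named genes most like each, and, from each of 15 lists of related genes and cell markers, the first 2 genes and the 2 with the smallest p in the average injury contrast. The groups of small RNAs and the fits without rats 76 and 89 were chosen after seeing the data. Only 99 identifiers could be paired with names, through the paper's supplement, and of the 106 listed genes 5 matched, all red cell markers. The other 14 lists were therefore not analysed here, so no neuronal marker outside the members checked the tissue.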

Additional observations from a re-analysis of the deposited data

How the results depend on the processing

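Over the contrasts of the 3 genes and the ratios in the average injury contrast and ±st(0), 531 of 570 values under alternatives kept their direction or differed by less than their error, on the same side of the threshold. An uncalled value of the same direction counted as kept at any size, so this tally is no measure of stability. Nefl in ±pim(st/SCI) counted as kept without rat 75, where it was -0.92 in place of -0.25. Calls were gained in ±SCI(0) for Nefl and Nefh with the exact test of the study on pairs of groups, without its limit on the fold (-0.41 and -0.41), with its 2 groups alone (-0.46 and -0.45) and without rats 76 and 89 (-0.45 and -0.45), and in ±SCI(st) for Nefl with the first and second of these (-0.42 and -0.43). In ±pim(st/SCI), Nefl moved to 0.079 with a term for the number series and to 0.077 without rats 76 and 89, where Nefh was at 0.15. Nefh was at 0.059 with the series term, and Nefm was at -0.42 and -0.33 under these alternatives (adjusted p = 0.92 and 1). The causes were not tested. In ±st(0), Nefm/Nefl was at -0.55 within rats 82 to 95, with an exact permutation p of 0.11.

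With each rat left out, Nefl ranged from -0.62 to -0.30 in ±SCI(st), -0.64 to -0.33 in ±st/SCI(0), -0.54 to -0.38 in the average injury contrast and -0.92 to 0.20 in ±pim(st/SCI). Nefh ranged from -0.59 to -0.29 in ±st/SCI(0), -0.45 to -0.30 in the average and -0.81 to 0.27 in ±pim(st/SCI), and Nefm from -1.41 to -0.24 there. In ±st(0), Nefm/Nefl ranged from -0.61 to -0.41, Nefh/Nefl from -0.15 to -0.091 and Nefh/Nefm from 0.27 to 0.48, and Nefh/Nefl in the average contrast from 0.051 to 0.092. Of the 9 fits for Nefm/Nefl in ±st(0), p was under 0.05 in 1, without rat 82, and in ±SCI(st) its p was 0.057 to 0.095 with 1 of the 8 rats left out, since fewer rats raise the smallest possible p.

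No paired analysis was possible because the groups share no rat numbers. The exact test compares only pairs of groups and gave no value for the average or the interaction, and group D has no rat in the series 82 to 95. The precision is limited by the 2 to 5 rats of a group, not by depth.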
